A study of Mus musculus with 3 samples.

Results

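Followed here are 10 genes whose products modulate the Hedgehog, Wnt, BMP and repulsive guidance molecule (RGM) pathways, in cortical neurons labelled through the somatostatin gene. They are the ligands Ptn and Bmp2, the receptors Ptch1, Neo1 and Bmpr2, the RGM co-receptors Rgma and Rgmb, and the inhibitors Sfrp1, Sfrp2 and Hhip. These 10 genes, of 31053 in the deposited matrices, were chosen by name, with earlier results of these data known. Single cells had been captured with 10x Genomics Chromium droplets from the dissected neocortex of Sst-Cre; RCEloxP mice, in which Cre from the somatostatin locus switches on a green fluorescent reporter, and sorted on that fluorescence before capture. All 3 groups carry both alleles, and the labels give no treatment. They were taken at embryonic day 16.5 (E16.5, 6 animals pooled), postnatal day 1 (P1, 3 animals pooled) and postnatal day 5 (P5, 3 animals pooled). Each stage is 1 library, so there is no replicate, no test could be run between stages or cell sets, and all intervals below are 95% intervals of counting error alone. Stage, library and preparation cannot be told apart, since trypsin and DNase were added to the P5 tissue alone and myelin was removed at P1 and P5 but not at E16.5.

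Most cortical somatostatin neurons are interneurons with local axons, while a small class, the long-range projection (LRP) neurons, sends axons to distant areas and makes nitric oxide with the synthase Nos1. Hedgehog ligands act through the receptor Ptch1, and Hhip, itself a target gene of the pathway, binds the ligands at the cell surface. Sfrp1 and Sfrp2 are secreted proteins that bind Wnt ligands and keep them from their Frizzled receptors. BMP2 signals through a receptor complex that contains Bmpr2, Rgma and Rgmb are membrane-anchored proteins that bind BMPs and the axon guidance receptor neogenin (Neo1), and pleiotrophin (Ptn) is a heparin-binding growth factor.

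Cells were compared in 2 sets within each library, among the cells with more than 700 detected genes and under 10% mitochondrial UMIs (unique molecular identifiers, which count captured RNA molecules). Nos1 cells had at least 1 Nos1 UMI, and numbered 67, 434 and 547 in the E16.5, P1 and P5 libraries. Lhx6 cells had a UMI of Lhx6, the transcription factor of interneurons born in the medial ganglionic eminence, and none of Nos1, and numbered 3269, 1606 and 1874. Levels are UMIs of a gene summed over a set, as counts per 1000000 UMIs of that set (CPM).

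The libraries held 3406 to 4478 cells, of which 2501 to 3952 were kept, and 13429055 to 25638779 UMIs. P1 kept the smallest share, 56.3%, and its kept cells had a median of 5.92% mitochondrial UMIs against 4.05% and 4.21%. Cell barcodes shared by a pair of libraries numbered 1 to 6. In every library the LRP markers Chodl, Npy, Tacr1 and Pou3f2 were higher in Nos1 cells, as was Nos1, whose direction the gate fixes. The 5 summed to 12850.3 to 38196 CPM against 837 to 1653 CPM, mostly through Npy, at 12365.5 to 34619 CPM in Nos1 cells. Lhx6 cells, which are gated on Lhx6, had a summed level of 1986 to 2465 CPM of the interneuron markers Lhx6, Sox6, Satb1, Gad1 and Gad2. Nos1 cells had 1316 to 2196 CPM. Lhx6, Satb1 and Gad2 were lower in Nos1 cells in every library. Sox6 was higher in them, at 470 against 335, 604 against 307 and 419 against 248 CPM. Gad1 was lower in Nos1 cells at E16.5 and P1 but higher at P5, at 203 against 150 CPM. All 6 excitatory neuron markers were higher in Nos1 cells at E16.5, with a summed level of 722 against 9.23 CPM, and 14 of the 67 cells carried at least 2 of them. At P1 that sum was 168 against 11.4 CPM with 17 such cells, and at P5 8.15 against 2.92 CPM with 3 cells. Radial glia and astrocyte markers summed to 47.1 against 7.54 CPM at E16.5, where Hes5, Aldh1l1, Aqp4 and Gfap were at 0 in Nos1 cells, and to 12.7 against 13.6 and 9.68 against 9.72 CPM later. Markers of Meis2-type inhibitory neurons summed to 178 against 47.4 CPM at E16.5, mostly through Meis2. Oligodendrocyte, microglia, vessel and blood markers each summed to at most 4.07 CPM in both sets, and markers of dividing cells to at most 9.65 CPM.

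The 10 genes lie on 9 mouse chromosomes of the GRCm38 build and are all annotated as protein coding. Hhip (chr8:79965851-80058006, minus strand) and Sfrp1 (chr8:23411502-23449632, plus strand) share chromosome 8 but stand far apart. The others are Ptn (chr6:36714929-36810220), Bmp2 (chr2:133552159-133562885), Ptch1 (chr13:63508328-63573598), Neo1 (chr9:58874687-59036441), Bmpr2 (chr1:59763400-59879014), Rgma (chr7:73375509-73419899), Rgmb (chr17:15803188-15831039) and Sfrp2 (chr3:83766321-83774316). An antisense gene in the matrices overlaps 464 bases at the 3′ end of Sfrp2 (Gm26771), and another overlaps 266 bases at the 5′ end of Rgma (A730056A06Rik). The antisense gene Gm47271 overlaps 54606 bases of Neo1 and had 2 UMIs in Lhx6 cells at E16.5 and none in either set otherwise. The authors counted only reads that corresponded to a single gene annotation, and each gene of such a pair has its own counts. Whether counting used strand is not given in the sources used here, so the separation of reads within such a pair was not checked.

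RefSeq promoter windows of 300 bases (250 before and 50 after the start, build GRCm38.p6) were at hand for 7 of the 10 genes, in 9 windows. The 2 windows printed here belong to genes with opposite patterns between the cell sets, and capitals mark the motif found in each. The Hhip window (chr8:80057959-80058258, minus strand) holds the palindromic cAMP response element TGACGTCA from position 176, which occurs in 1.79% of 32851 windows. The Sfrp2 window (chr3:83766071-83766370, plus strand) holds the octamer that POU factors bind, ATTTGCAT, from position 204, and ATTTGCAT or its reverse ATGCAAAT occurs in 1.74% of windows.
Hhip promoter: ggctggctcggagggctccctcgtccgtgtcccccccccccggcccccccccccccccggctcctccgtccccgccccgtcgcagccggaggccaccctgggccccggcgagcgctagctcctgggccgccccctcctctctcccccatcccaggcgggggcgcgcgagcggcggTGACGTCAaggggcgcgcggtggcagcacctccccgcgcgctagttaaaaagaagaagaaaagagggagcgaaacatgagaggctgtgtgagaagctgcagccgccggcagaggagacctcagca
Sfrp2 promoter: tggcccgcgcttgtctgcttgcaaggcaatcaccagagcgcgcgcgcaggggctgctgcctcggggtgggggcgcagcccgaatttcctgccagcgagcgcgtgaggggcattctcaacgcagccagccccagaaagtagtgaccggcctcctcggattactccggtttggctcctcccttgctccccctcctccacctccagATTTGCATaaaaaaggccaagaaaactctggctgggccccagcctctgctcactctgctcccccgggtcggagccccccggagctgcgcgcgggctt
No member window held the Gli site GACCACCCA or its reverse TGGGTGGTC (0.253% of windows), nor the TCF/LEF core CTTTGA or its reverse TCAAAG (16%). All motifs were searched on both strands and none overlaps another. They were chosen after these windows had been read, and a match is a description of the letters only.

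Between the member ligands Ptn and Bmp2, pleiotrophin (Ptn) was the one higher in Nos1 cells. Ptn stood at 803 CPM (732 to 878) in Nos1 cells at E16.5, 1802 CPM (1743 to 1862) at P1 and, highest, 2289 CPM (2223 to 2357) at P5. Lhx6 cells had 186 CPM (179.9 to 192), 150.1 CPM (142 to 159) and 119 CPM (112 to 126). No pair of these 6 levels had overlapping intervals, and the order ran from Nos1 cells at P5 down through P1 and E16.5, then Lhx6 cells at E16.5, P1 and P5. Nos1 cells were higher by 4.32-fold (3.92 to 4.76) at E16.5, 12-fold (11.2 to 12.8) at P1 and 19.3-fold (18.1 to 20.6) at P5. Of all Ptn UMIs in the kept cells, 9.40%, 67.9% and 76.2% lay in Nos1 cells, which held 2.41%, 18.0% and 15.2% of all UMIs.

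Bmp2, the BMP ligand among the 10, was found on the other side. It had 0, 2 and 2 UMIs in Nos1 cells, the last pair both at 1.02 CPM. Lhx6 cells had 1.51 CPM (1.03 to 2.13) at E16.5, 7.49 CPM (5.72 to 9.64) at P1 and 11.1 CPM (9.08 to 13.5) at P5, with overlapping intervals at P1 and P5. Lhx6 cells were higher by 7.38-fold (1.96 to 62.3) at P1 and 10.9-fold (2.95 to 91.4) at P5. At E16.5 the 0 in Nos1 cells allows up to 5.05 CPM (3 UMIs), above the Lhx6 level, so no difference could be detected at this depth.

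The receptors lay within a fold of 2 between the sets in each library. Bmpr2, the type II BMP receptor, stood at 70.7 CPM (50.9 to 95.6), 163 CPM (146 to 182) and 149 CPM (133 to 167) in Nos1 cells of the E16.5, P1 and P5 libraries and at 84.3 CPM (80.4 to 88.3), 173 CPM (164 to 182) and 149.7 CPM (142 to 158) in Lhx6 cells. The ratio of Nos1 over Lhx6 cells was 0.839-fold (0.602 to 1.14), 0.946-fold (0.835 to 1.07) and 0.997-fold (0.876 to 1.13). Neo1, the receptor of RGMs and netrins, stood at 77.4 CPM (56.7 to 103), 98.5 CPM (85.1 to 113) and 40.2 CPM (31.9 to 50.2) in Nos1 cells and at 52.9, 97.8 and 48.8 CPM in Lhx6 cells. Its ratio was 1.46-fold (1.07 to 1.97) at E16.5, 1.01-fold (0.857 to 1.18) at P1 and 0.824-fold (0.641 to 1.05) at P5. Without the cells that carried at least 2 markers of another type, the E16.5 ratio of Neo1 was 1.07-fold (0.673 to 1.61). Ptch1, the Hedgehog receptor and a target gene of that pathway, had few UMIs per cell, with 20.2 CPM (10.4 to 35.3), 33.0 CPM (25.5 to 42.1) and 28.5 CPM (21.5 to 37.0) in Nos1 cells and 22.7, 34.0 and 17.5 CPM in Lhx6 cells. Its ratio was 0.888-fold (0.456 to 1.57), 0.972-fold (0.730 to 1.28) and 1.63-fold (1.18 to 2.22), above 1 only at P5.

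The related co-receptors Rgma and Rgmb differed in their distribution. Rgma stood at 48.8 CPM (32.7 to 70.1), 130 CPM (115 to 147) and 95.3 CPM (82.1 to 109.9) in Nos1 cells and at 9.37 CPM (8.12 to 10.8), 12 CPM (9.71 to 14.6) and 4.86 CPM (3.55 to 6.50) in Lhx6 cells. Among these 6 levels, Lhx6 cells at E16.5 and P1 were the only neighbours whose intervals overlapped. Nos1 cells were higher by 5.21-fold (3.40 to 7.71), 10.8-fold (8.54 to 13.9) and 19.6-fold (14.1 to 27.8). Its antisense neighbour A730056A06Rik had 8.12 against 1.37 CPM at P1 and 15.3 against 2.05 CPM at P5, also higher in Nos1 cells. Rgmb stood at 53.9 CPM (36.8 to 76.0), 110.2 CPM (96.0 to 126) and 77.9 CPM (66.1 to 91.3) in Nos1 cells against 73.1, 89.0 and 61.1 CPM in Lhx6 cells. Its ratio was 0.737-fold (0.502 to 1.04), 1.24-fold (1.06 to 1.44) and 1.27-fold (1.06 to 1.53), within a fold of 2 in each library.

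Among the secreted inhibitors, Sfrp1 and Sfrp2 ran in opposite directions. Sfrp1 stood at 95.9 CPM (72.7 to 124), 268 CPM (245 to 291) and 259.8 CPM (238 to 283) in Nos1 cells at E16.5, P1 and P5, the last pair with overlapping intervals. In Lhx6 cells it stood at 25.3 CPM (23.2 to 27.5), 32.7 CPM (28.9 to 36.9) and 5.62 CPM (4.19 to 7.36), lowest at P5. Nos1 cells were higher by 3.79-fold (2.83 to 4.99), 8.18-fold (7.04 to 9.52) and 46.3-fold (34.7 to 62.8). Sfrp2 had 1 UMI in Nos1 cells at E16.5, then 14.7 CPM (9.86 to 21.1) at P1 and 4.07 CPM (1.76 to 8.03) at P5. Lhx6 cells had 2.68 CPM (2.03 to 3.48), 33.2 CPM (29.3 to 37.5) and 19.5 CPM (16.8 to 22.6) of Sfrp2. They were higher than Nos1 cells by 2.26-fold (1.53 to 3.43) at P1 and 4.80-fold (2.38 to 11.3) at P5, while the E16.5 ratio of 1.60-fold (0.275 to 64.1) could not be told from 1. The antisense neighbour of Sfrp2, Gm26771, stood at 0.895, 3.50 and 23.0 CPM in Lhx6 cells, and 48 Lhx6 cells at P5 held a UMI of each.

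Hhip was nearly absent outside the Nos1 cells. It had 5, 118 and 87 UMIs in Nos1 cells, or 8.42 CPM (2.73 to 19.6), 59.9 CPM (49.6 to 71.7) and 44.3 CPM (35.5 to 54.7), with overlapping intervals at P1 and P5. Lhx6 cells had 0, 4 and 1 UMIs, from 3269, 1606 and 1874 cells. The ratio was 120-fold (45.6 to 448) at P1 and 410.3-fold (71.7 to 16389.9) at P5, and at E16.5, against the floor of 3 UMIs in Lhx6 cells (0.141 CPM), Nos1 cells were at least 59.6-fold higher taking the 5 UMIs as counted, while the exact interval of the ratio starts at 32.7-fold. Of the Hhip UMIs in all kept cells, 118 of 124 at P1 and 87 of 88 at P5 lay in Nos1 cells.

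**Figure D1:**
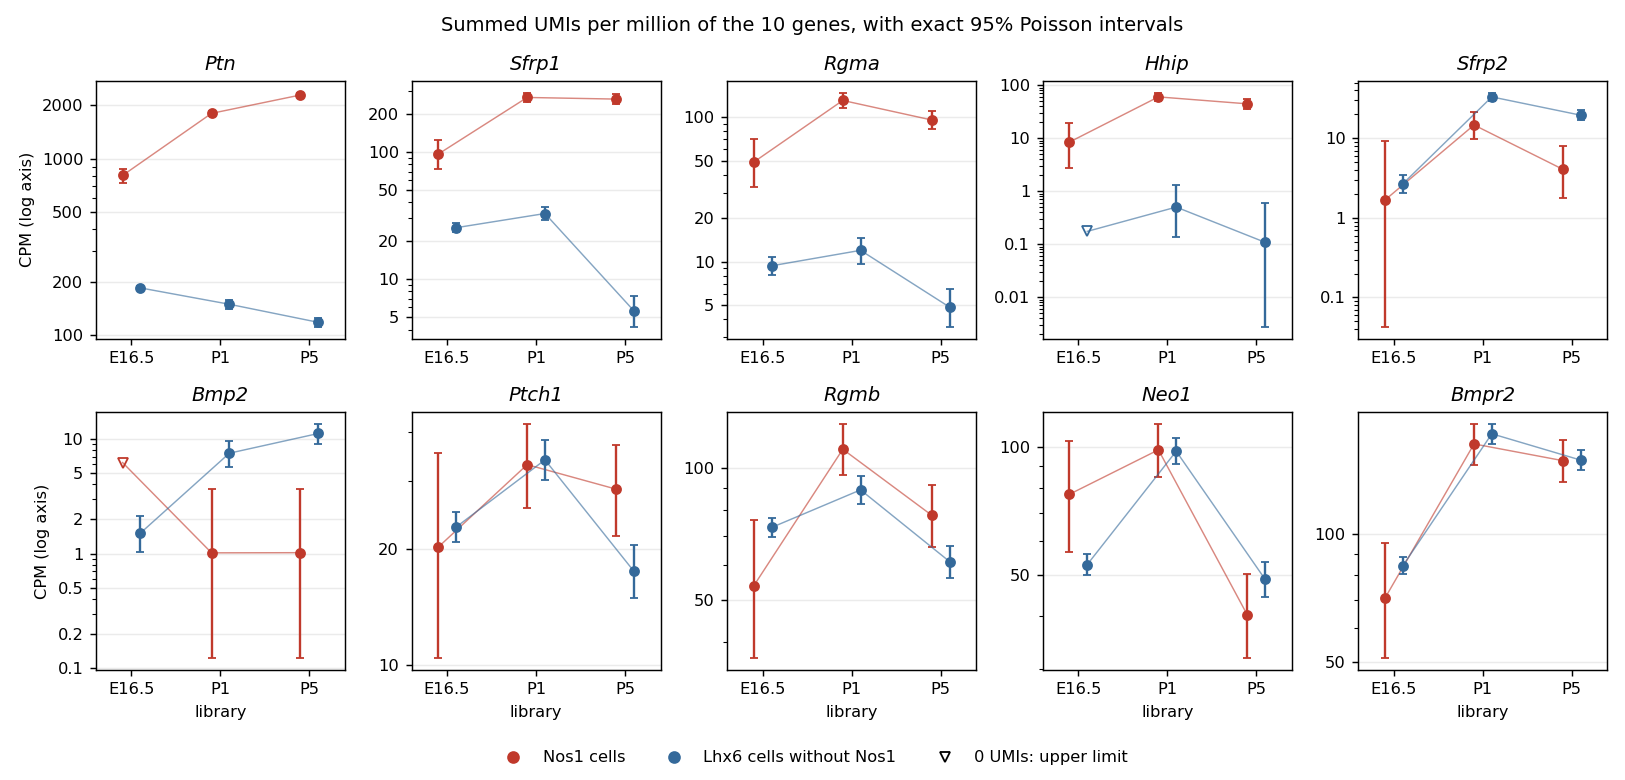
Level of each of the 10 genes in CPM (log axis, a scale of its own per gene) by library, in Nos1 cells (red) and Lhx6 cells without Nos1 (blue). Bars are exact 95% Poisson intervals, lines join the libraries of 1 cell set, and an open triangle is the upper limit where no UMI was found; Ptn, Sfrp1, Rgma and Hhip lie higher in Nos1 cells in each library.

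Counted against all genes, 3 of 9 members with at least 10 UMIs were past a fold of 2 upward in Nos1 cells at E16.5 (Ptn, Sfrp1 and Rgma), where 6.45% of 13574 genes were. At P1 and P5 they were 4 of 10, with Hhip, where 4.33% and 4.22% of genes were. Downward, 1 of 9 members was past the fold at E16.5 (Bmp2, on the 0 described above) beside 8.69% of genes, and 2 of 10 at P1 and P5 (Bmp2 and Sfrp2) beside 3.72% and 7.08%. The fold uses log2 of CPM with 1 CPM added, which understates the change of low genes, and on that scale the 10 members reached 5.30 for Sfrp1, 5.35 for Hhip, 4.26 for Ptn and 4.04 for Rgma at P5. The study had listed Ptn, Sfrp1, Hhip and Rgma as LRP genes from these same libraries, so their direction is not independent evidence.

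**Figure D2:**
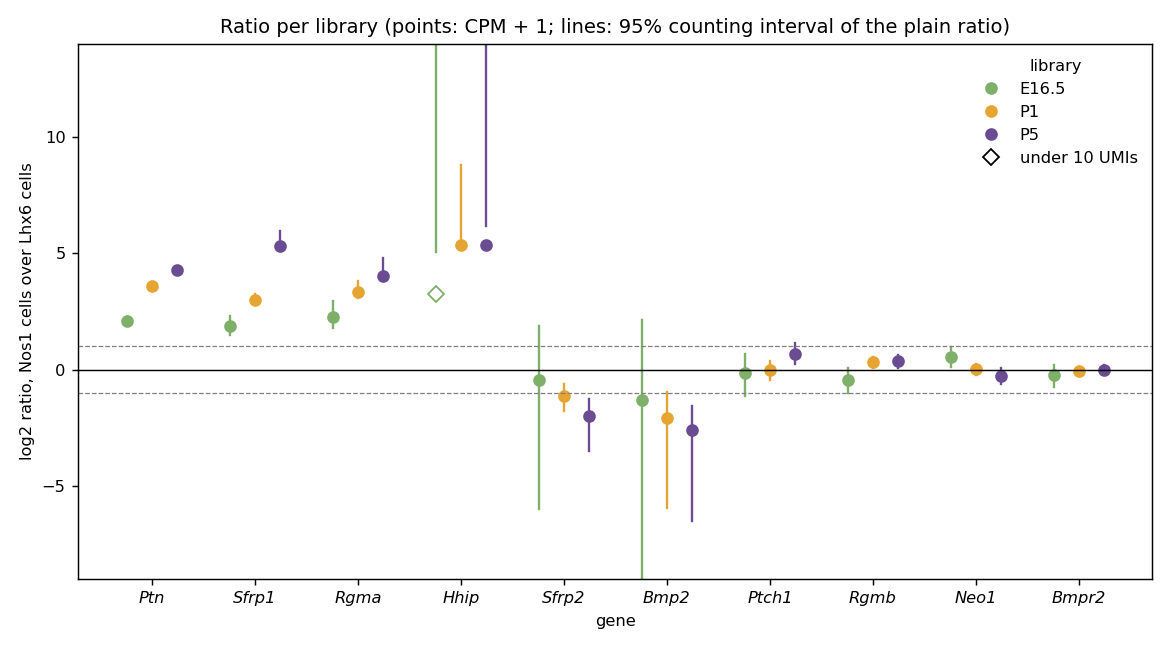
log2 ratio of Nos1 cells over Lhx6 cells without Nos1 for the 10 genes, in the E16.5, P1 and P5 libraries. Points use CPM with 1 CPM added (open diamond: under 10 UMIs over both sets), lines are 95% counting intervals of the plain ratio cut at the axis limits, and dashed lines mark a fold of 2; 4 genes lie above the upper line in each library and Ptch1, Rgmb, Neo1 and Bmpr2 lie between the dashed lines.

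The excitatory markers in the E16.5 Nos1 cells touch these values, since comparison cells with at least 2 excitatory markers and no Gad1, Gad2 or Lhx6 UMI also carried members. At E16.5 these 34 cells had 531 CPM (461 to 609.8) of Ptn, 57.9 CPM (36.3 to 87.6) of Rgma, 39.5 CPM (22.1 to 65.1) of Sfrp1 and 99.9 CPM (70.7 to 137) of Neo1, and no Hhip UMI. With the cells carrying at least 2 markers of 1 other cell type left out, the 53 remaining Nos1 cells at E16.5 had 857 CPM (769 to 951) of Ptn, 124 CPM (92.7 to 164) of Sfrp1, 65.9 CPM (43.4 to 95.9) of Rgma and 12.2 CPM (3.96 to 28.5) of Hhip. None was lower than with them, and the ratios to Lhx6 cells were 4.63-fold (4.14 to 5.16) for Ptn, 4.89-fold (3.59 to 6.52) for Sfrp1 and 7.02-fold (4.51 to 10.5) for Rgma. At P1 and P5, where 414 and 543 Nos1 cells remained, Ptn differed by 12.9-fold (12 to 13.8) and 19.4-fold (18.2 to 20.7), and Hhip by 131-fold (50.0 to 490.4) and 412-fold (72.0 to 16457).

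Ptn was seen in 73.1% (60.9 to 83.2) of Nos1 cells at E16.5, 88.7% (85.3 to 91.5) at P1 and 91.0% (88.3 to 93.3) at P5, against 48.4%, 35.6% and 32.6% of Lhx6 cells. Excitatory comparison cells, which also carry Ptn, had 55.9%, 76.7% and 43.5% at median depths of 11243.5, 5012 and 3743 UMIs, so no background share of Ptn from free RNA was measured. With each cell thinned to 2000 UMIs, the Ptn shares were 66.2%, 82.9% and 86.2% against 26.6%, 19.6% and 18.1%. Thinning left out 2, 78 and 133 Nos1 cells and 169, 291 and 201 Lhx6 cells. Median depth was 7863, 3704.5 and 3073 UMIs in Nos1 cells and 5808, 3811 and 4752.5 in Lhx6 cells.

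The shares of the lower genes depend on depth, and a cell without a UMI may still express them. Sfrp1 was seen in 52.3% (47.5 to 57.1) of them at P1 and 53.4% (49.1 to 57.6) at P5, or 37.1% and 39.6% after thinning, against 7.45% and 1.26% of thinned Lhx6 cells. Rgma was seen in 35.7% (31.2 to 40.4) and 26.1% (22.5 to 30.0), or 22.8% and 17.6% after thinning against 2.28% and 0.897% of Lhx6 cells. Hhip was seen in 11.1% (8.27 to 14.4) of Nos1 cells at P1 and 10.2% (7.83 to 13.1) at P5, with up to 8 UMIs in a cell, and in 0.249% (0.0679 to 0.636) and 0.0534% (0.00135 to 0.297) of Lhx6 cells. The excitatory comparison cells, 30 at P1 and 23 at P5, held no Hhip UMI and are too few to show a background at the Lhx6 shares. Sfrp2 was seen in 11.5% (10.0 to 13.2) of Lhx6 cells at P1 and 7.47% (6.32 to 8.76) at P5. Unthinned Nos1 cells with 1, 2 to 4 and 5 or more Nos1 UMIs had 9.52%, 6.25% and 3.51% at P1. At P5 these cells had 1.23%, 3.66% and 0.781%. After thinning, Sfrp2 was seen in 6.92% and 4.36% of Lhx6 cells against 1.69% and 0.966% of Nos1 cells. Bmp2 was seen in 4.96% (4.02 to 6.05) of Lhx6 cells at P5 and in 2 of 547 Nos1 cells.

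At P1 and P5, levels of Ptn, Sfrp1, Rgma and Hhip were higher with more Nos1 UMIs in a cell. In P1 cells with 1 Nos1 UMI, with 2 to 4 and with 5 or more, Ptn stood at 649, 1861 and 2493 CPM. Sfrp1 stood at 77.8, 263 and 385 CPM in the same cells, and Rgma at 45.1, 148 and 177 CPM. Hhip stood at 18.7, 32.4 and 92.5 CPM at P1 and at 3.19, 36.6 and 54.2 CPM at P5. Sfrp2 instead was lowest in cells with 5 or more Nos1 UMIs at P1, with 21.8, 25.2 and 7.63 CPM. The cells with 2 to 4 Nos1 UMIs were the shallowest, with a median of 2417.5 UMIs at P1 against 3845 and 4218.5, and the part of depth in this order was not tested.

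Within Nos1 cells, Hhip followed the transcription factor Dach1 rather than Lypd1, a membrane-anchored protein of the Ly6 family; the study used these genes to tell LRP neurons apart. At P1, Nos1 cells with a Dach1 UMI and none of Lypd1 (98 cells) had 199 CPM (159 to 246) of Hhip, those with Lypd1 and no Dach1 (55 cells) had 9.29 CPM (1.92 to 27.1), and those with neither (278 cells) had 25.1 CPM (16.9 to 35.8). At P5 the same classes (27, 221 and 284 cells) had 255 CPM (165 to 376), 18.8 CPM (10.8 to 30.6) and 41.9 CPM (29.8 to 57.3). The Dach1 cells were higher in Hhip than the Lypd1 cells by 21.4-fold (7.08 to 106) at P1 and 13.5-fold (6.93 to 27.1) at P5. At E16.5 all 5 Hhip UMIs lay in the 22 Nos1 cells with Dach1 alone, while 1 cell had Lypd1 alone.

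Rgmb and Rgma leaned the same way as Hhip, and Ptn did not. Rgma was higher in the Dach1 cells than in the Lypd1 cells by 1.40-fold (0.985 to 2.02) at P1, where the interval includes 1, and 2.39-fold (1.40 to 3.92) at P5. Rgmb was higher in them by 1.95-fold (1.27 to 3.05) and 2.12-fold (1.09 to 3.86). Ptn stood at 2128 CPM (1992 to 2270.5) in Dach1 cells and 2381 CPM (2216 to 2556) in Lypd1 cells at P1, and at 1812 CPM (1556 to 2099) and 2974 CPM (2859 to 3093) at P5, higher in the Lypd1 cells by 1.12-fold (1.02 to 1.23) and 1.64-fold (1.41 to 1.92). Sfrp1 could not be told apart between the classes, with a ratio of Dach1 over Lypd1 cells of 0.932-fold (0.730 to 1.19) at P1 and 1.11-fold (0.745 to 1.59) at P5. The Dach1 and Lypd1 cells differed in depth, with medians of 3955 and 5059 UMIs at P1 and 2667 and 3370 UMIs at P5.

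**Figure D3:**
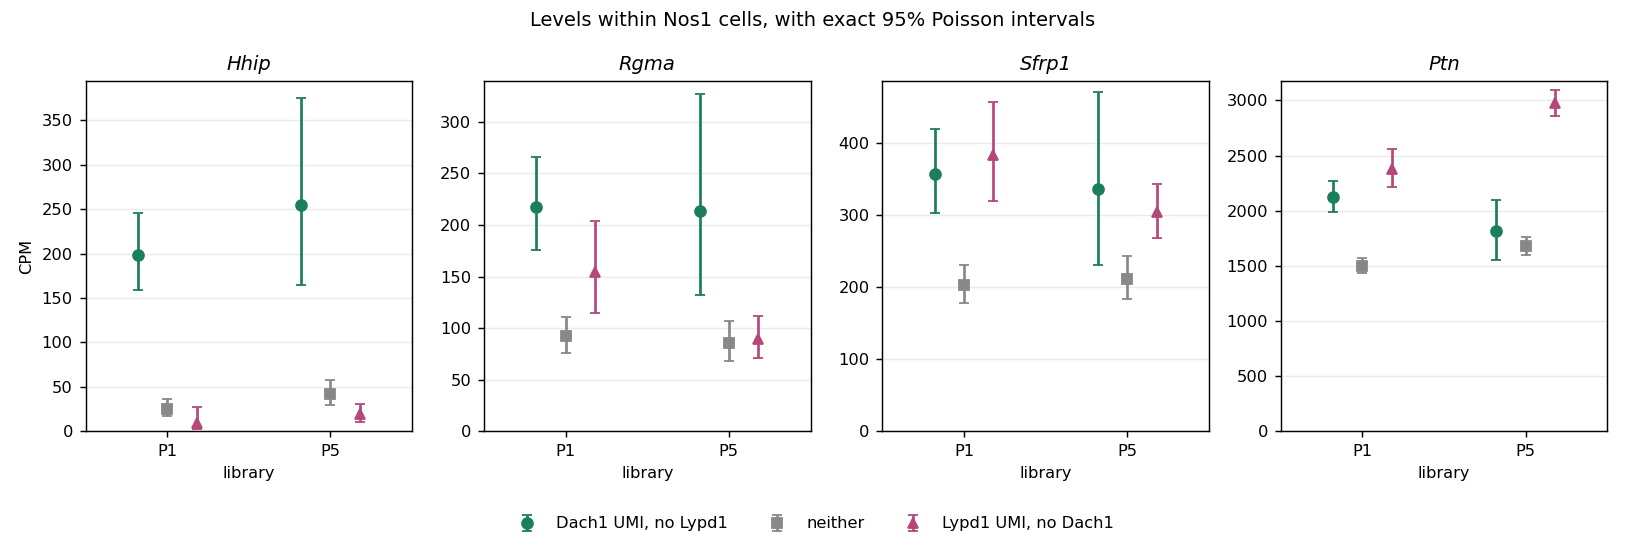
Level in CPM (linear axis from 0, a scale of its own per gene) of Hhip, Rgma, Sfrp1 and Ptn in the P1 and P5 libraries, in Nos1 cells with a Dach1 UMI only (green circles), a Lypd1 UMI only (pink triangles) or neither (grey squares). Bars are exact 95% Poisson intervals; Hhip is highest in the Dach1 cells in each library, while Ptn is highest in the Lypd1 cells.

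Pou3f2 is a POU-domain transcription factor of LRP neurons. Within Lhx6 cells, the few with a Pou3f2 UMI numbered 104, 213 and 76 in the E16.5, P1 and P5 libraries. Sfrp1, Rgma, Ptn, Sfrp2 and Ptch1 were higher in them in each library, with overlapping intervals for Ptch1 and Rgma at P5. The share of all genes higher in these cells was not computed. LRP neurons with an Lhx6 UMI but no captured Nos1 UMI fall in the Lhx6 set. Their part in these values, and in the ratios between the sets, was not tested. Sfrp1 stood at 94.6 against 23.1 CPM in cells with and without Pou3f2 at E16.5, 124 against 22.0 CPM at P1 and 67.5 against 3.57 CPM at P5, a difference of 18.9-fold (10.2 to 34.1) at P5. Rgma stood at 54.3 against 7.97 CPM, 37.0 against 9.06 CPM and 16.9 against 4.46 CPM, or 6.81-fold (4.59 to 9.86) higher at E16.5. Ptn stood at 474 against 177 CPM, 343 against 128 CPM and 327 against 112 CPM.

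Sfrp2 was among these genes, although it was lower in Nos1 cells. Its level in Lhx6 cells with and without Pou3f2 was 10.9 against 2.43 CPM at E16.5, 78.9 against 27.9 CPM at P1 and 57.3 against 18.3 CPM at P5, a difference of 4.47-fold (1.71 to 9.90), 2.83-fold (2.11 to 3.75) and 3.13-fold (1.78 to 5.17). Ptch1 was higher in the Pou3f2 cells by 1.89-fold (1.23 to 2.79), 2.17-fold (1.59 to 2.93) and, with an interval that includes 1, 1.37-fold (0.540 to 2.88). The octamer in the Sfrp2 window is the kind of letters POU factors bind, and no data here bear on binding.

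**Figure D4:**
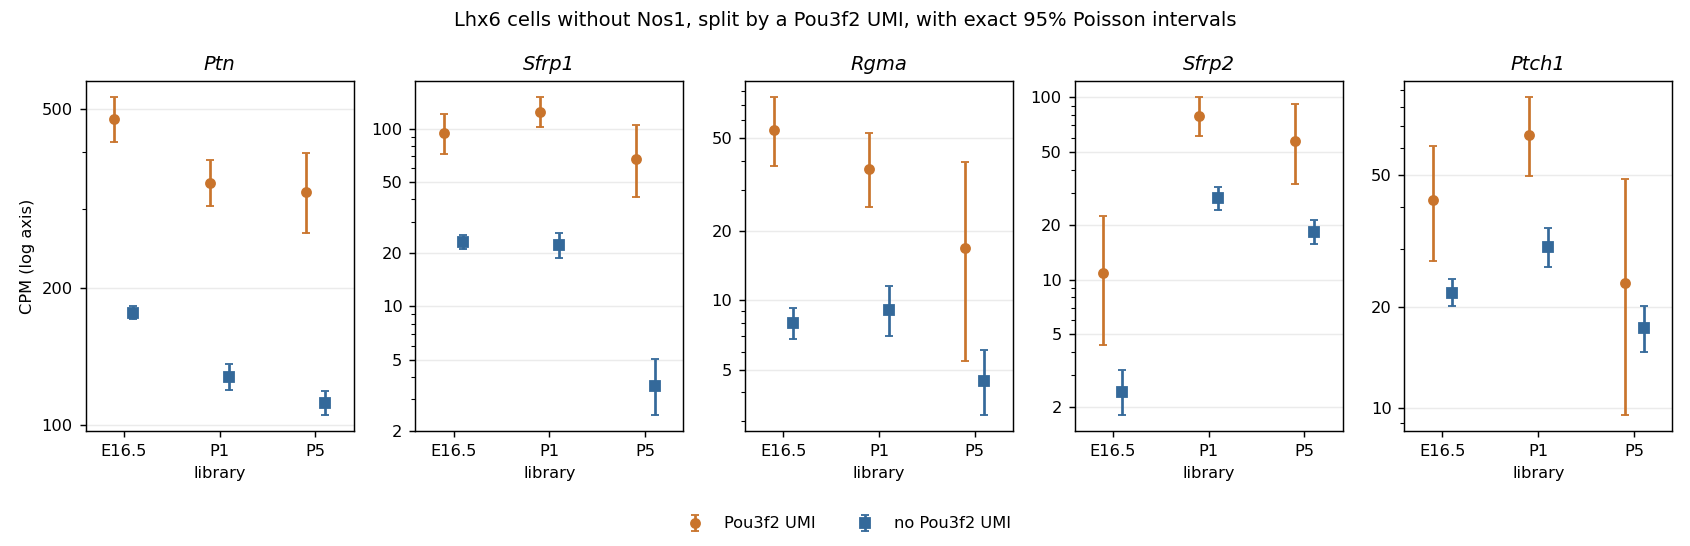
Level in CPM (log axis, a scale of its own per gene) of 5 genes in Lhx6 cells without Nos1, by library, in cells with a Pou3f2 UMI (orange circles) and without (blue squares). Bars are exact 95% Poisson intervals; the orange point lies above the blue point for each gene in each library, with overlapping intervals for Ptch1 and Rgma at P5.

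Other splits of the Lhx6 cells kept 1 direction in all 3 libraries for a member, and some went in opposite directions for different members. Cells with Mef2c, a transcription factor, were lower in Ptn, Rgma and Sfrp1, with log2 differences of -0.97, -2.12 and -0.92 for Ptn, -2.29, -3.00 and -1.14 for Rgma, and -1.68, -2.78 and -1.73 for Sfrp1. Cells with Rbp4, a retinol carrier, were lower in Sfrp2, which stood at 3.00 against 41.2 CPM at P1 and 4.51 against 29.9 CPM at P5. They were also lower in Sfrp1, with log2 differences of -1.82, -1.67 and -1.53, in Rgma, with -0.76, -1.53 and -0.74, and in Ptch1, with -0.28, -0.85 and -0.91. The Rbp4 cells were lower in Neo1 too, with -0.31, -0.12 and -0.26. They were higher in Bmp2, with 0.41, 0.42 and 0.63, on 32, 60 and 103 UMIs in all Lhx6 cells. Ptn differed little, with 0.28, 0.07 and 0.08. No intervals are given for these log2 differences, and small ones may lie within counting error. Cells with Nr2f2, a nuclear receptor, were lower in Ptch1, at 14.6 against 26.3 CPM, 24.0 against 37.4 CPM and 11.9 against 19.6 CPM. They were lower in Sfrp1 as well, with log2 differences of -1.0, -2.10 and -1.42, in Rgma, with -1.57, -0.61 and -1.22, in Ptn, with -0.46, -1.0 and -1.66, and in Sfrp2, with -0.31, -2.20 and -3.65. Cells with Sst, the somatostatin transcript, were higher in Bmp2, with 9.04 against 1.25 CPM at P1 and 12 against 7.79 CPM at P5, and cells with Tac1, the substance P precursor, were lower in Neo1, with log2 differences of -0.37, -0.41 and -0.90. Cells with a splitting UMI could be deeper, with 8532 against 3515 UMIs for Nr2f2 at P1, and the part of depth was not tested. The smallest absolute log2 difference in the best split was 0.37 for Neo1, 0.35 for Rgmb (lower with Etv1) and 0.05 for Bmpr2 (higher with Reln).

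Between libraries, Sfrp1, Ptn and Rgma separated the cell sets. From E16.5 to P5 the log2 ratio of Sfrp1 was 1.43 in Nos1 cells and -1.99 in Lhx6 cells, or 2.71-fold (2.06 to 3.63) and 0.222-fold (0.164 to 0.296). For Ptn the ratios were 2.85-fold (2.59 to 3.14) and 0.639-fold (0.597 to 0.683), and for Rgma 1.95-fold (1.31 to 2.99) and 0.519-fold (0.367 to 0.720). The Nos1 cells of E16.5 held fewer with many Nos1 UMIs, 8 of 67 with at least 5 against 384 of 547 at P5. Among cells with at least 5, a gate added after seeing the data, the Nos1 log2 ratios were 1.17 for Sfrp1, 0.93 for Ptn and 0.06 for Rgma. Without the cells that carried markers of another type, the log2 ratios in Nos1 cells were 1.06 for Sfrp1, 1.42 for Ptn and 0.53 for Rgma. Nos1 cells with Dach1 alone numbered 98 at P1 and 27 at P5, and those with Lypd1 alone 55 and 221. Ptn stood at 2128 and 1812 CPM in the former, 2381 and 2974 CPM in the latter, and 1498 and 1678 CPM with neither. Hhip stood higher at P5 in each of these classes and lower over all Nos1 cells, with overlapping P1 and P5 intervals in every case. The part of this make-up in the ratios was not tested.

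In Lhx6 cells, Sfrp2 was higher at P1 than at E16.5 by 12.4-fold (9.26 to 16.8), and Bmp2 by 4.97-fold (3.18 to 7.89) and Bmpr2 by 2.05-fold (1.91 to 2.20), the 3 of 9 members past a fold of 2 upward beside 10.3% of all genes, with none downward beside 3.25%. The median gene was itself higher at P1 by 0.16 to 0.18 on the log2 scale. Between P1 and P5, Sfrp1, at 0.172-fold (0.125 to 0.232), and Rgma, at 0.405-fold (0.278 to 0.584), were the members past the fold downward, 2 of 9 beside 9.91% of genes, and none was past it upward beside 8.86%. In Nos1 cells 7 of 9 members were past the fold upward from E16.5 to P1 (Ptn, Sfrp1, Rgma, Hhip, Rgmb, Bmpr2 and Sfrp2) beside 15.9% of genes, and none downward beside 6.04%. From P1 to P5, Neo1, at 0.409-fold (0.310 to 0.533), and Sfrp2, at 0.277-fold (0.109 to 0.620), were past it downward in Nos1 cells beside 12.8% of genes, and none upward beside 7.61%. With more than 1000 genes and under 5% mitochondrial UMIs required, which left 357 Lhx6 cells at P1, the P1 over E16.5 log2 ratio in Lhx6 cells was past the fold upward for Sfrp2, Sfrp1, Rgma and Ptch1 and no longer for Bmp2 and Bmpr2. It changed sign for Ptn, from -0.31 to 0.37, and moved for Sfrp2 from 3.21 to 2.95, for Sfrp1 from 0.36 to 1.40, for Rgma from 0.32 to 1.28, for Ptch1 from 0.56 to 1.15, for Bmpr2 from 1.03 to 0.90 and for Bmp2 from 1.76 to 0.42. For P5 over P1 in Lhx6 cells the same filter gave -3.62 for Sfrp1, -2.23 for Rgma, -1.51 for Ptch1 and -1.03 for Sfrp2, all past the fold downward, and 1.86 for Bmp2, past it upward. The share of all genes past the fold between libraries was not computed with this filter or the other alternatives, so these calls have no background. In Nos1 cells, P1 over E16.5 was no longer past the fold for Ptn (0.83) and Rgma (0.70) with at least 5 Nos1 UMIs, for Rgmb (0.64) with cells thinned to 2000 UMIs, and for Bmpr2 (0.78) with at least 2 Nos1 UMIs, and P5 over P1 was no longer past it for Sfrp2 (-0.89) with thinned cells.

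Cells with neither Nos1 nor Lhx6 held few Hhip UMIs. Hhip had 0, 2 and 0 UMIs in these 616, 461 and 559 cells. Ptn stood at 233 CPM (216 to 252), 482 CPM (439.8 to 528) and 182 CPM (162 to 204), between the levels of the other sets, beside excitatory marker sums of 198, 322 and 122 CPM. Sfrp2 stood at 30.6 CPM (22.8 to 40.3) at P5, above its Lhx6 level, and Bmp2 at 9.61 CPM (5.49 to 15.6).

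Each library was also divided into 10 groups of cells by k-means, without the members, and each member was set beside all other genes over these 30 groups, centred within library. The groups share 3 libraries and their depth, so r is a description. Ptn was most like Nos1 (r = 0.85), Rgma (r = 0.84) and Trib2 (r = 0.83), and Rgma most like Pou3f2 (r = 0.89), Nos1 (r = 0.89) and Trib2 (r = 0.87). Sfrp1 was most like Mllt3 (r = 0.81), Akap12 (r = 0.77) and Plpp3 (r = 0.74), and Sfrp2 most like Ackr3 (r = 0.82), Adamts5 (r = 0.79) and its antisense neighbour Gm26771 (r = 0.78). Among the receptors, Ptch1 was most like Stx16 (r = 0.78), Ogt (r = 0.74) and Hnrnpr (r = 0.74), Neo1 like Cacna1c (r = 0.94), Mgat4a (r = 0.94) and Lztr1 (r = 0.94), and Bmpr2 like Scamp5 (r = 0.85), Psap (r = 0.81) and Serinc1 (r = 0.79). Rgmb was most like Qpct (r = 0.87), Prag1 (r = 0.85) and Mpp5 (r = 0.82). Hhip and Bmp2, with 217 and 242 UMIs in all, were below the 300 UMIs set for this measure. Hhip had its highest level in a P5 group of 122 cells led by Dach1, Rmst, Rarb and Syt6, at 165 CPM (123 to 217). Bmp2 had its highest in an E16.5 group of 52 cells led by Meis2, Six3, Nts and Zfhx3, at 29.9 CPM (15.9 to 51.1) on 13 UMIs. That interval overlapped those of 2 further groups. A P5 group of 507 cells led by Egln3, Lgals1, Crh and Ndnf had 25.7 CPM (20.0 to 32.6) on 68 UMIs. A P1 group of 51 cells led by Neurod6, Neurod2, Zbtb18 and Nrgn had 21.2 CPM (8.52 to 43.7) on 7 UMIs. In an E16.5 group of 96 cells led by Dach1, Nos1, Ntn1 and Fam46a, only 33.3% had a Nos1 UMI. Ptn stood there at 1088 CPM (1004 to 1178), Sfrp1 at 232 CPM (194 to 275) and Rgma at 126 CPM (98.3 to 159). Sfrp2 had its highest level in a P1 group of 384 cells led by Rmst, Pcsk5, Prkcq and Lrrtm3, at 82.7 CPM (68.0 to 99.7). In that group 6.25% of cells had a Nos1 UMI, and Ptn stood at 281 CPM, Sfrp1 at 109 CPM and Ptch1 at 60.2 CPM. Whether the Pou3f2 cells of the Lhx6 set lie in it was not tested.

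In the wider pathways, the netrin ligand Ntn1 stood out on the side of the Nos1 cells. Of 138 genes of the Hedgehog, Wnt, BMP, RGM and pleiotrophin lists, 75, 72 and 75 other than the members had at least 10 UMIs at E16.5, P1 and P5. Of these, 11, 9 and 7 were past a fold of 2 upward in Nos1 cells and 5, 5 and 10 downward, beside 6.45%, 4.33% and 4.22% of all genes upward and 8.69%, 3.72% and 7.08% downward. In the RGM and neogenin list of 11 measured genes, members Rgma, Rgmb and Neo1 included, the median log2 ratio was 0.54, 0.37 and 0.11. Over all genes it was -0.05, -0.03 and -0.07. The list median at E16.5 was the ratio of Neo1 itself, which was 0.09 without the cells that carried markers of another type. Ntn1, a secreted guidance cue that also binds neogenin, stood at 53.9 against 2.07 CPM in Nos1 and Lhx6 cells at E16.5, 47.2 against 0.499 CPM at P1 and 43.3 against 0.216 CPM at P5. The netrin receptors Unc5c and Unc5d had log2 ratios of 2.38, 1.42 and 0.96 for Unc5c and 0.25, 0.56 and 1.26 for Unc5d, past the fold at E16.5 and P1 for Unc5c and at P5 for Unc5d.

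In the BMP receptor list, with 6 measured genes, Acvr2b stood at -0.76, -0.48 and -0.42 on the log2 scale and Bmpr1a at 0.23, 0.24 and 0.22. In the Wnt lists Wnt7a stood at -0.08, -0.57 and -0.11, the scaffold Apc at -0.20, -0.15 and -0.25, and the Wnt effector Dvl2 at 0.08, 0.26 and 0.30. Some list genes were singled out after their values were seen. The BMP ligand Bmp3 stood at 17.8 against 1.37 CPM in Nos1 and Lhx6 cells at P1 and 61.1 against 0.648 CPM at P5, opposite to Bmp2. The Wnt ligand Wnt2 had 20 UMIs in Nos1 cells and 0 in Lhx6 cells at P1, and 30.1 against 0.540 CPM at P5. The BMP inhibitor Grem1 stood at 1.02 against 14.8 CPM at P5, and the pleiotrophin receptor Ptprz1 at 261 against 108 CPM at E16.5 but 52.5 against 159 CPM at P5. Gli1, a target gene of Hedgehog signalling like Ptch1 and Hhip, had no UMI in either set of any library.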

How the data were processed

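Gene expression was measured in single cells of 3 libraries, 1 per stage. The deposited matrices hold UMI counts per gene and cell, which the authors made with Cell Ranger (3.1.0 at E16.5 and P5 and 3.0.2 at P1, per the file headers) and the GRCm38 build, per the submitters' processing notes. The counts were not normalized, and these notes also name STAR and Seurat. Cells with more than 700 genes and under 10% mitochondrial UMIs were kept, and no doublet caller was run. UMIs were summed per library and cell set and divided by the set's total. Levels carry exact Poisson intervals, shares exact Clopper-Pearson intervals and ratios exact conditional binomial intervals, at 95%, for counting error only. No test was run, since cells are not replicates. A gene was counted as past the fold at 2-fold or more on log2(CPM + 1), among genes with at least 10 UMIs over both sets. Named beside the members were, per pathway list, up to 3 genes with the largest lowest absolute log2 ratio of 1 sign in 3 libraries and at least 20 CPM, up to 3 splitting genes per member by the same measure with at least 50 cells a side, and the 3 genes with the highest r. For the splits by Nr2f2, Rbp4 and Chodl, members for which these genes ranked lower were also given. Some splits within the limit of 3 are not named. The members and lists were chosen with earlier results of these data known. Alternatives changed the cell filters, the Nos1 gate, the total, the pseudocount and the minimum of UMIs, or left out the 5% of cells with most UMIs. The calculation of ratios was tested on simulated data. Python 3.11.15, numpy 2.4.6, scipy 1.17.1, pandas 2.3.3 and scikit-learn 1.9.0 were used.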

Additional observations from a re-analysis of the deposited data

Results flagged for a closer look

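Some members lay in opposite directions between libraries in the 2 cell sets, with counting intervals clear of 1 on both sides. The difference between the sets was not tested, as each stage is 1 library. For Ptn, the log2 ratio of P1 over E16.5 was 1.17 in Nos1 cells and -0.31 in Lhx6 cells, that of P5 over P1 was 0.35 and -0.34, and that of P5 over E16.5 was 1.51 and -0.64. The Lhx6 value of P1 over E16.5 was 0.37 with more than 1000 genes and under 5% mitochondrial UMIs required, and the Nos1 value of P5 over P1 was then 0.07. The make-up of the Nos1 cells by Dach1 and Lypd1 also differed between P1 and P5, and its part was not tested. For Sfrp1, the log2 ratio of P5 over E16.5 was 1.43 in Nos1 cells and -1.99 in Lhx6 cells. For Rgma it was 0.95 and -0.82, and the Nos1 value was 0.06 among cells with at least 5 Nos1 UMIs.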

How the results depend on the processing

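No paired analysis was possible because each stage is 1 library, and for the same reason no replicate could be left out. Of the recomputed counts of members and pathway genes past the fold between the cell sets, 79 stayed within 1.5 times their value and 11 did not, and among the other recomputed values, single genes and shares included, 968 stayed and 184 moved. Members past the fold downward in Nos1 cells at E16.5, 1 as reported, were 2 with at least 2 Nos1 UMIs, 2 with more than 1000 genes and under 5% mitochondrial UMIs, 2 with at least 5 Nos1 UMIs (a gate chosen after seeing the data), 0 with a pseudocount of 5 CPM and 0 with at least 50 UMIs. At P1, 2 as reported, they were 1 with the stricter cell filter, 1 with cells thinned to 2000 UMIs and 1 with a pseudocount of 5 CPM. The share of all genes past the fold is not given for these settings. With at least 50 UMIs the pathway genes past the fold, members included, were 8 upward (13 as reported) and 3 downward (7) at P1, and 7 downward (12) at P5. Single ratios moved by more than their intervals allow in 46 of 360 cases between cell sets and 78 of 720 between libraries. The fitted log2 ratio of Hhip at P5 ran from 3.27 to 7.74, at P1 from 3.56 to 6.65 and at E16.5 from 1.42 to 6.41 with the pseudocount. Over all settings that of Ptn at E16.5 ran from 2.08 to 2.91, that of Rgma from 1.55 (thinned) to 3.40 at E16.5, from 2.46 (stricter cell filter) to 3.78 at P1 and from 3.35 to 4.28 at P5, and that of Sfrp1 from 2.00 (stricter cell filter) to 3.52 at P1 and from 4.64 to 5.54 at P5. The 67 Nos1 cells at E16.5 limit every value there.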
